A study of Mus musculus with 5 samples.

Results

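Blood vessel endothelial cells line arteries, capillaries and veins, and here they were studied in granulomas that formed around 2 foreign materials in the mouse. They were taken as the cells that the authors' deposited clustering calls endothelial and that had no transcript molecule (unique molecular identifier, UMI) of Prox1, Mmrn1 and Reln, 3 genes of lymphatic endothelium. The rule found 1681 cells among the 41191 cells of the series. The series holds 5 single-cell libraries made with 10x Chromium 3' v3 chemistry, 1 per group: granulomas around sponge at 2 and at 4 weeks, granulomas around silk at 2 and at 4 weeks, and a control of macrophages elicited with thioglycollate. The labels give no strain, genotype, age, sex or number of animals for any group, and no treatment other than the named materials. With 1 library per group nothing could be tested over replicates, so no p-value is given. All intervals cover counting error only, and differences between libraries may be differences between animals or cell preparations.

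Endothelium of arteries, capillaries and veins shares a set of junction and signalling genes, and each segment adds its own. Arterial cells carry Notch-pathway genes and connexins, capillary cells carry fatty acid handling genes, and venular cells carry the selectins and adhesion molecules that slow and stop leukocytes. In granulation tissue new capillaries sprout from existing vessels, and tip cells that lead a sprout express ligands such as apelin and angiopoietin-2. Venules are the segment through which leukocytes leave the blood in inflamed tissue.

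Throughout, 4 values in a row stand for the sponge 2-week, sponge 4-week, silk 2-week and silk 4-week granulomas, in that order. The rule found 788, 324, 429 and 140 blood vessel cells of 810, 490, 579 and 221 deposited endothelial cells. These were 6.38%, 4.21%, 4.19% and 7.47% of all cells in each granuloma, with 95% exact binomial intervals of 5.96 to 6.83%, 3.77 to 4.68%, 3.81 to 4.6% and 6.32 to 8.76%. The 2 highest shares were thus those of sponge at 2 weeks and silk at 4 weeks. Of endothelial cells they made up 97.3%, 66.1%, 74.1% and 63.3%, highest in the sponge 2-week granuloma, and of all cells that were not leukocytes 23.2%, 14.7%, 27.5% and 27.03%. The control library held 0 of 9039, which allows a share of up to 0.0332%.

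The label was set beside 5 markers as a description. Cdh5, the adherens junction protein VE-cadherin, had a UMI in 91.9%, 87.3%, 95.3% and 92.1% of the blood vessel cells and in 1.45%, 1.14%, 0.544% and 0.181% of the cells deposited as monocytes and macrophages, whose median depth was 4787, 3182, 4350 and 4260.5 UMIs per cell. Pecam1, an adhesion molecule of endothelial junctions, was seen in 90.6%, 87.04%, 94.6% and 89.3% of blood vessel cells and Plvap, the diaphragm protein of fenestrae and caveolae, in 67.9%, 63.3%, 71.8% and 70.7%. Selp, the P-selectin that captures rolling leukocytes, was seen in 40.9%, 37.96%, 48.02% and 42.1% and Vwf, the clotting factor stored in endothelial granules, in 43.1%, 38.9%, 62.2% and 58.6%, against 2.46%, 3.66%, 3.81% and 6.06% of the monocytes and macrophages for Vwf. Cdh5 and Pecam1 thus marked nearly every cell, whereas Selp and Vwf marked a portion of them. With each cell thinned to 1000 UMIs, the Vwf shares were 17.5%, 24.6%, 34.9% and 42.9%, against 73.96%, 70.4%, 78.1% and 78.99% for Cdh5, so the higher shares in silk for Vwf were still seen at equal depth. At least 1 of Cdh5 and Pecam1 was seen in 96.3%, 92.9%, 98.6% and 96.4% of the cells. The clustering behind the label came from the same counts, so these shares describe the cells and do not test the label.

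The same markers were summed over all UMIs of the cells and expressed as counts per 1000000 UMIs (CPM). Cdh5 stood at 1667, 1249.5, 1679 and 1495 CPM and Pecam1 at 1382, 1462, 1692 and 1849.6 CPM in the blood vessel cells, and in all other cells of the same granulomas at 47.2, 32.8, 20.04 and 37.8 CPM and 42.9, 39.2, 22.4 and 47.00 CPM. Plvap stood at 1038, 1215, 1482 and 1657 CPM, Selp at 736, 684, 932 and 1337 CPM and Vwf at 197, 322, 464 and 724 CPM. Vwf differed most of the 5 between libraries in fold. The cells that the authors deposited as myocytes, which carry mural genes, held Cdh5 at 951, 754, 1012 and 946 CPM and Pecam1 at 677, 649, 823 and 763 CPM, so endothelial transcripts were high in that class too.

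The members and the endothelial cells outside the rule were compared as a description. Endothelial cells with exactly 1 UMI of the rule genes numbered 10, 10, 9 and 3, those with 2 UMIs numbered 2, 6, 5 and 4, and those with 3 or more numbered 10, 150, 136 and 74. Flt1, a receptor for VEGF-A and placental growth factor that marks blood vessels, had a UMI in 82.99%, 79.9%, 85.1% and 90% of the members and in 10%, 10.7%, 2.94% and 1.35% of the endothelial cells with 3 or more. Lyve1, a hyaluronan receptor of lymphatic vessels that the rule did not use, had a UMI in 2.79%, 4.63%, 4.43% and 2.14% of the members. Ccl21a, the lymphatic chemokine that draws dendritic cells, had one in 0%, 1.23%, 0.932% and 0.714%. In the cells with exactly 1 UMI of the rule genes, Flt1 was seen in 100%, 60%, 44.4% and 66.7% and Lyve1 in 0%, 0%, 22.2% and 33.3%. Flt1 was thus more common in these cells than in those with 3 or more, and the rule's edge was not a clean cut. Few cells lay near that edge, and Lyve1 and Ccl21a were rare inside it.

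The blood vessel cells had a median of 6010, 4894.5, 5877 and 4301 UMIs and 2314, 2091.5, 2365 and 1947 genes per cell, and summed to 7505153, 2456933, 3093132 and 739075 UMIs, so the silk 4-week values rest on the fewest UMIs. The median mitochondrial share was 4.42%, 7.92%, 4.9% and 5.85%, against 3.21%, 6.54%, 3.82% and 4.45% in monocytes and macrophages, and was highest in the sponge 4-week granuloma in both. Of 41038 distinct barcode sequences 153 occurred in more than 1 library. Markers of other cells were also present: 10 macrophage genes summed to 1400.4, 1390.4, 1468 and 101 CPM in the blood vessel cells and 10887, 9204, 16746 and 15769.9 CPM in all other cells. The 9 fibroblast genes summed to 2379.6, 824, 253 and 71.7 CPM and 31517, 36379, 13177 and 22899.6 CPM, the 6 neutrophil genes to 462, 48.8, 96.99 and 8.12 CPM, the 7 lymphocyte genes to 59.3, 44.8, 49.5 and 5.41 CPM and the 10 mural genes to 393, 263, 177 and 388 CPM. In silk at 4 weeks 1 macrophage, 1 fibroblast, 2 neutrophil, 5 lymphocyte and 4 mural genes were at 0, and the 5 mesothelial genes summed to 0, 0, 0 and 0 CPM. Col1a1, the main fibrillar collagen chain of fibroblasts, had a UMI in 47.3%, 43.2%, 18.9% and 9.29% of blood vessel cells and in 48.6%, 45.3%, 18.9% and 9.76% of monocytes and macrophages at the median depths given above, so the Col1a1 share of blood vessel cells did not exceed that of another class in each granuloma. Fibroblast genes were thus highest in sponge at 2 weeks and macrophage and fibroblast genes lowest in silk at 4 weeks, so the levels in all other cells are given beside genes of such cells below.

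Against all other cells of their own granuloma, and ranked by the smallest difference over the 4 granulomas, the leading genes were Cdh5, Plvap, Selp and Pecam1, followed by Ptprb, Fabp4, Tspan7, Ctla2a, Esam, Emcn and Mmrn2. Because the clustering used these genes, the values describe the cells and test nothing. Ptprb, a receptor phosphatase that acts on VE-cadherin and Tie2, stood at 619, 612, 869 and 1303 CPM, and in other cells at 16.1, 15.97, 6.9 and 21.97 CPM. Emcn, the sialomucin endomucin of capillaries and veins, stood at 459.7, 693, 660.2 and 632 CPM, and in other cells at 11.7, 10.5, 3.67 and 10.8 CPM. Fabp4, a fatty acid binding protein of capillary endothelium, stood at 7391, 6754, 4421 and 7599 CPM, and in other cells at 306, 101, 59.6 and 78.2 CPM. All of these were over 10-fold higher in blood vessel cells in each granuloma.

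Against the lymphatic cells left out by the rule, the leading genes by the same ranking were Ubd, Glycam1, Cxcl12 and Sema3g. The lymphatic class held 22, 166, 150 and 81 cells. Of the 22 in sponge at 2 weeks, 10 had only 1 UMI of the rule genes and 2 had 2 UMIs. Flt1 was seen in 100% of those 10, so the lymphatic values of that granuloma rest on few and mixed cells. Cxcl12, a chemokine that binds Cxcr4 and is strong in arteries, stood at 541, 358, 302 and 1188 CPM in blood vessel cells and 116, 10.1, 16.03 and 30.1 CPM in lymphatic cells. Sema3g, a semaphorin of arterial endothelium, stood at 69.7, 69.6, 119.9 and 192 CPM and 9.68, 9.28, 7.01 and 0 CPM. Over the mural class the leading genes were Ctnnal1, Tspan7, Ackr1, Vwf, Cytl1, Fmo1 and Ptgs1. Ackr1, the venular receptor that binds inflammatory chemokines without signalling, stood at 145, 218, 263 and 403 CPM in blood vessel cells and 46.3, 27.9, 0 and 0 CPM in mural cells. Several of the genes that separated blood vessel cells from their neighbours were thus arterial or venular genes.

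The cells were then sorted into marker ranges, after thinning to 1000 UMIs, which 718, 280, 401 and 119 cells reached and 70, 44, 28 and 21 did not. A cell was put in a range when it had UMIs of at least 3 different genes of that range's list (14 arterial, 12 capillary, 12 venous and 14 tip or angiogenic genes), so a cell can be in several ranges, and a range is not a cell type. The venous range held 34.0%, 34.6%, 50.9% and 59.7% of cells, with intervals of 30.5 to 37.6%, 29.1 to 40.5%, 45.9 to 55.9% and 50.3 to 68.6%. Silk thus exceeded sponge by 16.9 percentage points (95% interval 10.7 to 23.0) at 2 weeks and by 25.02 points (13.9 to 35.5) at 4 weeks. The intervals of silk and sponge did not overlap at either time, but they cover the counting of cells only, not differences between animals or preparations. Without thinning, the differences were 8.86 and 9.88 points, in the same direction.

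The arterial range held 18.8%, 16.4%, 20.9% and 31.9% of cells. It was 15.5 points (5.93 to 25.6) larger in silk than in sponge at 4 weeks (8.71 without thinning), whereas at 2 weeks the difference was 2.15 points. The capillary range held 73.7%, 65.0%, 59.9% and 65.5%, so it was 13.8 points smaller in silk at 2 weeks and within 1 point at 4 weeks. The 2-week difference was -2.91 points without thinning and -5.91 points when 2 genes were enough. The tip range held 15.9%, 14.3%, 14.0% and 5.04%, or 6 cells in silk at 4 weeks. It was 9.24 points smaller in silk than in sponge at 4 weeks, with an interval from -14.9 to -2.42. Many cells lay near the limit: 72, 20, 66 and 27 cells had exactly 3 venous genes and 114, 47, 75 and 21 had exactly 1 fewer. For the arterial list these counts were 64, 24, 33 and 18, and 124, 44, 69 and 19.

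**Figure D1:**
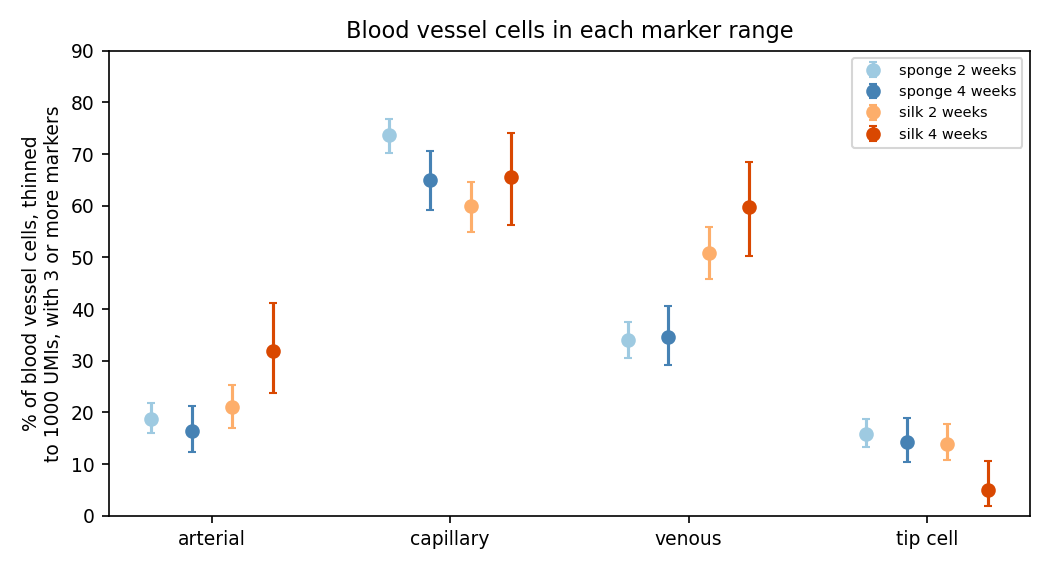
Percent of blood vessel cells, thinned to 1000 UMIs, with at least 3 genes of the arterial, capillary, venous and tip lists in each of the 4 granulomas, with 95% exact binomial intervals. The venous points are higher in silk than in sponge at both times, and the tip point is lowest in silk at 4 weeks.

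Of the thinned cells 16, 8, 15 and 16 were in both the arterial and the venous range, or 11.9%, 17.4%, 17.9% and 42.1% of the arterial range. Without thinning 76.8%, 78.1%, 81.2% and 86.02% of the arterial-range cells were in the venous range as well, so the separation of the ranges depended on the depth. Among thinned cells 119, 38, 69 and 22 were in the arterial range alone and 228, 89, 189 and 55 in the venous range alone. In these ranges, made to exclude each other, the median over cells of the summed arterial list was 6561, 4462, 8542 and 9476 CPM in arterial-range cells and 865, 822, 1065 and 1164 CPM in venous-range cells. For the venous list these medians were 857, 1228, 1233 and 1442 CPM and 7602, 8803, 7437 and 8681 CPM. Venous-range cells were also deeper, with medians of 7405, 6541, 6738 and 5386 UMIs against 4922, 3314.5, 3560 and 3989. The part of this depth gap in the values below was not tested, although CPM divides by depth.

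Among the list genes that chose the ranges, Gja5, the arterial gap junction protein connexin 40, stood at 417, 471, 852 and 898 CPM in arterial-range cells and 2.34, 1.32, 4.55 and 6.05 CPM in venous-range cells. Ackr1 was listed at 0 UMIs in the arterial-range cells of all 4 granulomas and stood at 445, 599, 487 and 768 CPM in the venous-range cells. Selp stood at 4.41, 16.4, 29.1 and 37.4 CPM and 2024, 1782, 1559 and 2541 CPM. These values restate how the ranges were made.

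Genes outside both lists were compared as well. Of 3902 genes considered, 64 were at least 2-fold higher in venous-range cells in all 4 granulomas and 74 at least 2-fold higher in arterial-range cells. The genes named next were picked from these after their values were seen. Csf3, the cytokine that drives neutrophil production, stood at 358, 291, 359.97 and 199.6 CPM in venous-range cells and at 15.4, 0, 0 and 0 CPM in arterial-range cells. Glycam1, a mucin that carries the sugar ligands of L-selectin, stood at 80.3, 327, 384 and 756 CPM and 6.62, 0, 2.65 and 0 CPM. Cxcl10, a chemokine that attracts T cells through Cxcr3, stood at 442, 316, 68.9 and 66.5 CPM and 70.6, 49.3, 0 and 9.35 CPM. These 3 genes for leukocyte supply and capture were all higher in the venous-range cells. Ptgs1, the constitutive cyclooxygenase, stood at 126, 138, 122 and 154 CPM and 9.92, 16.4, 10.6 and 18.7 CPM, and Slco2a1, a prostaglandin transporter, at 409.7, 298, 316 and 396 CPM and 28.7, 5.48, 26.5 and 46.8 CPM.

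On the arterial side, Mgp, the matrix Gla protein that inhibits calcification, stood at 305, 1791, 1901 and 6586 CPM in arterial-range cells and 16.8, 64.9, 46.8 and 172 CPM in venous-range cells. Cldn5, the main tight junction claudin of endothelium, stood at 974, 1654, 1271 and 1001 CPM and 105, 155, 18.2 and 36.3 CPM. Jag2, a Notch ligand, stood at 143, 164, 177 and 365 CPM and 15.9, 22.5, 35.7 and 45.4 CPM, and Notch4, an endothelial Notch receptor, at 157, 186, 219.7 and 327 CPM and 23.8, 34.4, 33.8 and 9.07 CPM. Igfbp3, a carrier of insulin-like growth factors, stood at 1061, 1413, 1755 and 1338 CPM and 119.6, 78.1, 306 and 51.4 CPM. The log2 ratio of venous over arterial range lay from -5.18 to -3.56 for Mgp, -5.51 to -3.10 for Cldn5, 3.86 to 5.21 for Csf3 and 2.44 to 6.26 for Glycam1. Direction was fixed by the choice of genes, so only the sizes describe them.

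**Figure D2:**
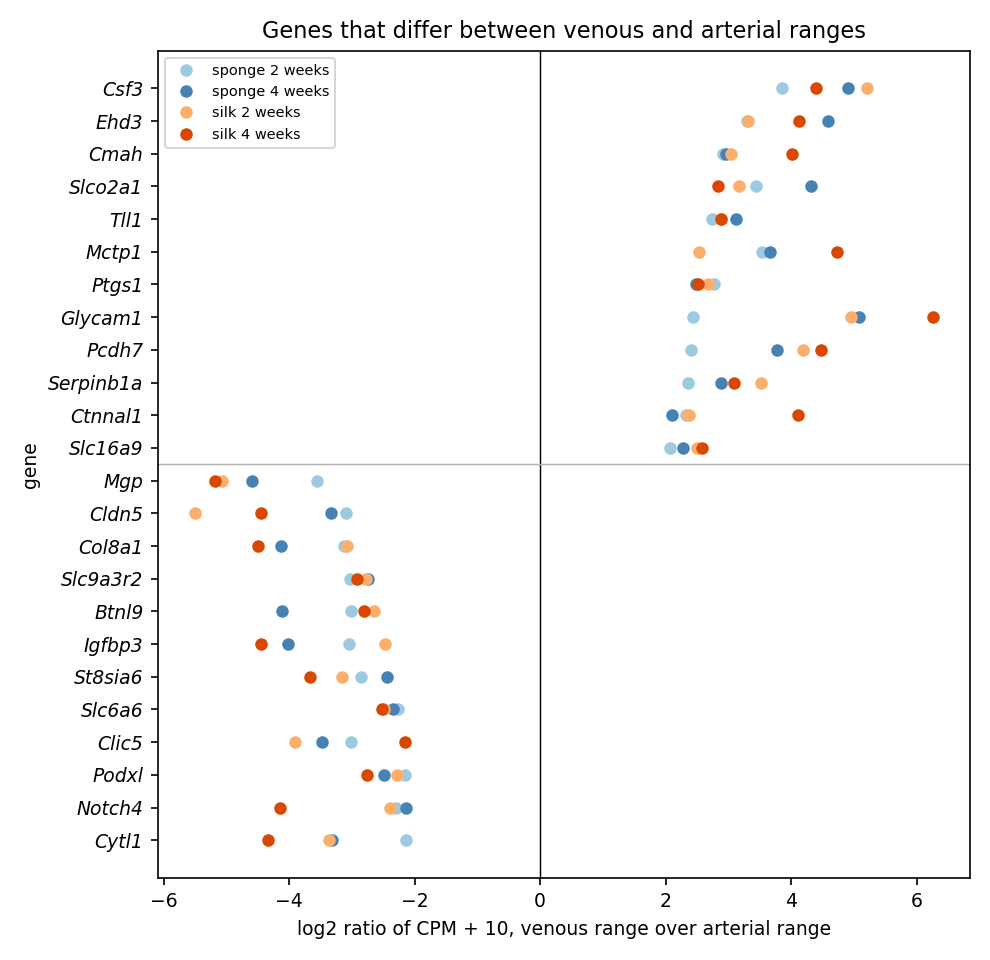
Log2 ratio of CPM (10 CPM added to both) in venous-range over arterial-range cells for 12 genes higher on each side, 1 point per granuloma, all genes outside the 2 lists. The genes were chosen for a 2-fold difference the same way in all 4 granulomas, so the side of each point is set by that choice. Glycam1 has the widest spread on the venous side.

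Silk was compared with sponge at matched times. A gene was compared where its higher granuloma had at least 50 CPM and 25 UMIs at both times, and it was called where silk and sponge differed at least 2-fold the same way at both, on the scale of log2 CPM with 10 CPM added, which understates the difference of low genes. Of 3460 genes compared, 7 were called higher in silk (0.202%) and 12 lower (0.347%). The 7 higher genes were St8sia6, Pcdh7, Eln, Vwf, Mgp, Insr and Glycam1. The 12 lower genes were Chga, Pgf, Cxcl10, Cxcl2, Ccl2, Irf7, Ifi27l2a and the fibroblast genes Col1a1, Col1a2, Col3a1, Col6a3 and Dcn. Among the 2346 genes that were at least as high in blood vessel cells as in other cells, 7 were called higher (0.298%) and 3 lower (0.128%: Cxcl10, Pgf and Chga). The genes higher in silk included a granule protein, a mucin and matrix proteins, and those lower included chemokines and a VEGF-family ligand. Leaving out of each gene the 1 cell per library with most of its UMIs, a check chosen after seeing the data, left 4 of the 7 higher genes (Pcdh7, Eln, Vwf and Mgp). TMM scaling and median-ratio scaling of the libraries each left 4 as well (Eln, Vwf, Mgp and Glycam1), and Pcdh7, Insr and St8sia6 lost the call. In the check that left out single cells, Insr at 4 weeks and St8sia6 at both times were just under 2-fold, and Pgf no longer reached 50 CPM. Levels over the summed cells cannot tell apart a larger share of cells of one range from more RNA per cell.

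Vwf stood at 197, 322, 464 and 724 CPM, so both silk granulomas were above both sponge granulomas. It was 2.35-fold (95% interval 2.18 to 2.53) higher in silk at 2 weeks and 2.25-fold (95% interval 2.01 to 2.51) at 4 weeks. The 5 cells with most Vwf UMIs held 6.75%, 15.3%, 7.94% and 25.4% of them. Vwf (chr6:125546774-125686679, plus strand, GRCm38) encodes the factor that tethers platelets. It was spread over many cells.

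Glycam1 (chr15:103562759-103565081, minus strand, GRCm38) stood at 41.6, 124, 280.3 and 348 CPM, again with both silk values above both sponge values. It was 6.74-fold (95% interval 5.92 to 7.7) higher in silk at 2 weeks and 2.8-fold (95% interval 2.36 to 3.32) at 4 weeks. A Glycam1 UMI was found in 7.87%, 12.04%, 20.5% and 12.1% of cells, and the 5 cells with most held 35.3%, 62.6%, 52.2% and 91.1% of its UMIs. In monocytes and macrophages the shares with a UMI were 0.0135%, 0.0827%, 0.0664% and 0.181%. The single highest cell held 29, 68, 167 and 175 of 312, 305, 867 and 257 UMIs. Without that 1 cell in each library Glycam1 stood at 37.7, 96.5, 226 and 111 CPM, and the log2 differences of silk from sponge were 2.31 at 2 weeks and 0.18 at 4 weeks, so the 4-week difference was no longer 2-fold. Cells with Glycam1 had a median of 12315, 8883, 8447.5 and 6635 UMIs against 5727, 4243, 4257 and 3826 in cells without it. Cells with Glycam1 had Selp at 1242, 1187, 1335 and 1710.3 CPM against 663, 565, 763 and 1243 CPM in cells without it, and Ackr1 at 281, 521, 403 and 987 CPM against 125, 146, 205 and 257 CPM. Gja5 was at 5.27, 0, 0 and 6.76 CPM in them against 75.4, 57.8, 174 and 191 CPM. Madcam1 and Chst4, 2 other genes of high endothelial venules, stood at 0.933, 2.44, 0.647 and 0 CPM and 1.33, 4.88, 5.5 and 2.71 CPM, near the limit of detection.

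Mgp stood at 117, 257, 316 and 1078 CPM, and 73.7%, 87.8%, 44.1% and 88.6% of its UMIs came from 5 cells. In all other cells it stood at 255, 305, 74.03 and 476 CPM. Without the highest cell of each library it stood at 91.3, 174, 275 and 518 CPM, with log2 differences of silk from sponge of 1.49 at 2 weeks and 1.52 at 4 weeks. Eln, which encodes elastin of arterial walls, stood at 83.1, 135, 294 and 337 CPM, and was 3.54-fold (95% interval 3.19 to 3.92) and 2.49-fold (95% interval 2.11 to 2.95) higher in silk at 2 and 4 weeks. The 5 cells with most Eln UMIs held 16.7%, 41.3%, 23.4% and 44.2% of them. Without the highest cell of each library the log2 differences for Eln were 1.67 at 2 weeks and 1.21 at 4 weeks. Both genes were higher in each silk granuloma than in the sponge granuloma of its time. Mgp was concentrated in a few cells, and Eln less so. Insr, the insulin receptor, stood at 113, 128, 309 and 276 CPM, and Pcdh7, a protocadherin, at 41.04, 61.5, 143 and 138 CPM. St8sia6, a sialyltransferase, stood at 26.1, 25.2, 63.04 and 67.7 CPM and Calcrl, the receptor that with Ramp2 binds adrenomedullin, at 161, 126, 339 and 249 CPM. For Insr, Pcdh7, St8sia6 and Calcrl both silk values exceeded both sponge values. Tacr1, the receptor for substance P, stood at 22.1, 37.04, 57.5 and 82.5 CPM and Mctp1, a calcium-binding membrane protein, at 76.2, 83.4, 179 and 169 CPM. Their log2 differences were 1.07 at 2 weeks and 0.98 at 4 weeks for Tacr1 and 1.14 at 2 weeks and 0.94 at 4 weeks for Mctp1.

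Of the genes lower in silk, Pgf, the placental growth factor that binds Flt1, stood at 51.03, 56.6, 3.56 and 6.77 CPM. It was 14.3-fold (95% interval 7.93 to 28.99) lower in silk at 2 weeks and 8.36-fold (95% interval 3.5 to 26.2) lower at 4 weeks, and both silk values were far below both sponge values. A Pgf UMI was found in 11.2%, 9.26%, 2.33% and 1.43% of cells and in 1.95%, 0.496%, 0.571% and 0.0904% of monocytes and macrophages. Chga, which encodes the granule protein chromogranin A best known from neuroendocrine cells, stood at 683, 103, 76.3 and 20.3 CPM, and had a UMI in 19.9%, 8.64%, 6.06% and 1.43% of cells and in 0.659%, 0.103%, 0.0266% and 0% of monocytes and macrophages. Chga was highest in sponge at 2 weeks. Its levels in all other cells of the granulomas were 26.4, 0.746, 1.39 and 1.15 CPM. Trp53i11 stood at 212, 142, 86.97 and 78.5 CPM, and Atf3, a stress-induced transcription factor, at 590.4, 587, 274 and 392 CPM. Cldn5 stood at 378, 571, 233 and 258 CPM, lower in silk at both times, with log2 differences of -0.67 at 2 weeks and -1.11 at 4 weeks.

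**Figure D3:**
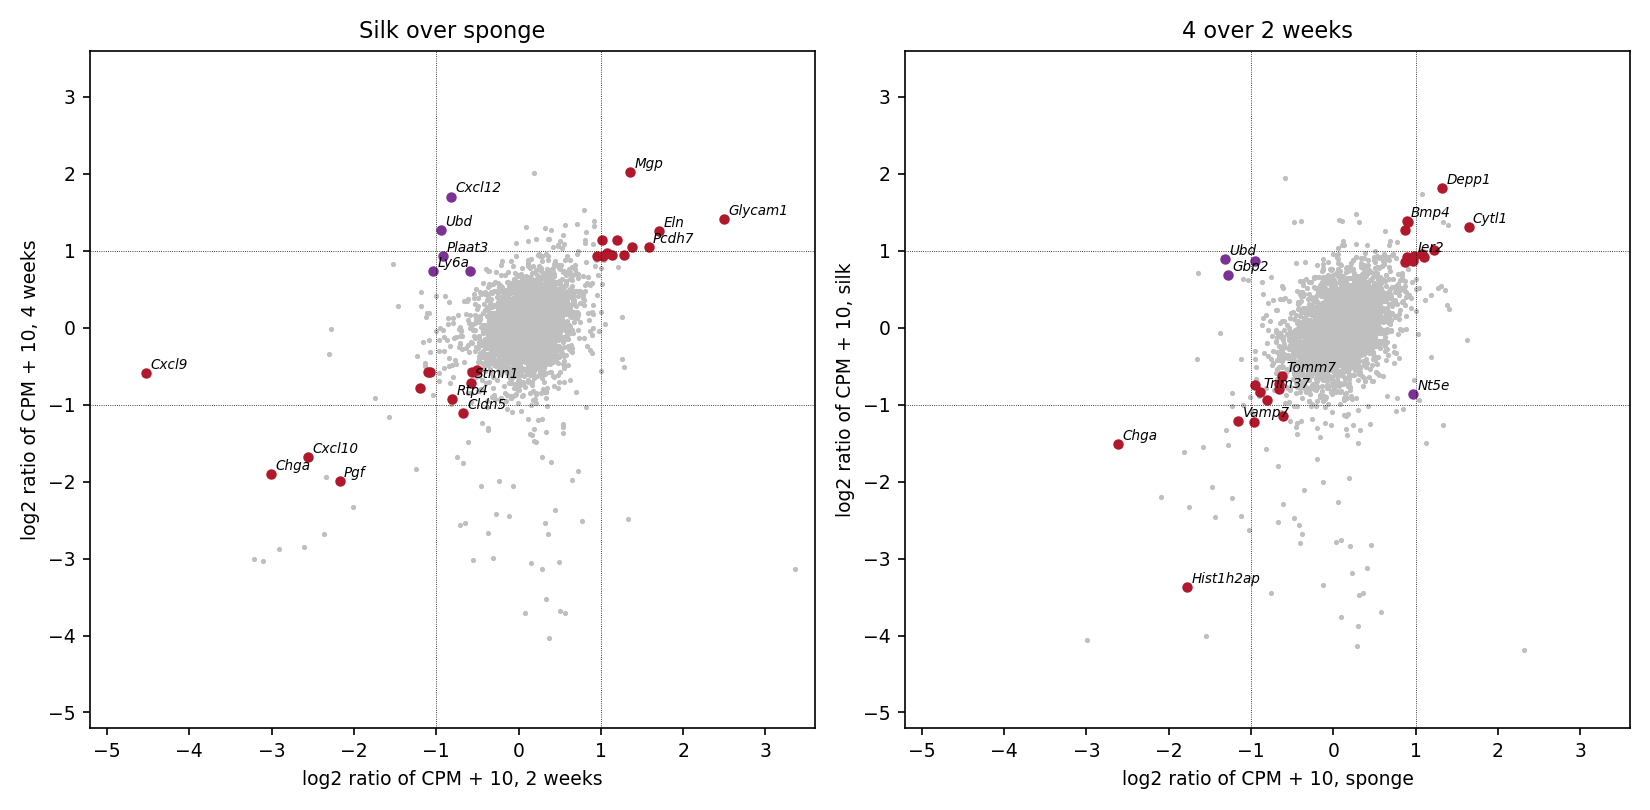
Log2 ratio of CPM with 10 CPM added, for silk over sponge at 2 weeks against 4 weeks (left) and for 4 over 2 weeks in sponge against silk (right); grey points are all genes compared, red points the named genes, purple points the named genes that went opposite ways, and dotted lines mark 2-fold. Vwf, Glycam1 and Mgp lie beyond 2-fold at upper right of the left panel and Pgf, Chga and Cxcl10 beyond 2-fold at lower left.

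Among function groups, a member was counted where the compared libraries together held 20 or more of its UMIs. Among all genes with that many, 0.365% were at least 2-fold higher and 0.926% lower in silk at 2 weeks, and 0.958% and 2.46% at 4 weeks. The median log2 difference over all such genes was 0.10 at 2 weeks and 0.02 at 4 weeks. TMM scaling of the libraries in place of CPM moved the median of all genes at 2 weeks by -0.17, which turned the small positive 2-week medians of the VEGF, tip, junction and basement membrane groups negative; at 4 weeks it turned those of the glycolysis and oxidative phosphorylation groups.

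The interferon group had 17 measured members of 18, genes that type I interferon induces in most cells. Silk was lower than sponge for all 17 at 2 weeks and for 15 of 17 at 4 weeks, with medians of -0.80 and -0.48 on the log2 scale. At least 2-fold lower in silk were 6 at 2 weeks and 2 at 4 weeks, Ifit1 and Irf7. Isg15, a ubiquitin-like modifier, stood at 179, 95.6, 46.2 and 46.00 CPM in the blood vessel cells and 191, 66.6, 32.2 and 32.2 CPM in all other cells. Irf7, a transcription factor that amplifies interferon production, stood at 90.9, 54.5, 23.9 and 18.9 CPM and 156, 45.6, 24.3 and 14.4 CPM. Bst2, the membrane protein tetherin, stood at 1019, 625, 470.4 and 415 CPM and 426, 216, 139 and 166 CPM. For these genes sponge at 2 weeks was highest in the blood vessel cells and also in the other cells of the granulomas. Rsad2, the antiviral protein viperin, stood at 84.1, 55.4, 35.9 and 25.7 CPM and Rtp4, an interferon-induced receptor chaperone, at 68.4, 50.1, 34.9 and 21.6 CPM. Irf7, Rsad2, Rtp4 and Bst2 all had, from high to low, the order sponge 2 weeks, sponge 4 weeks, silk 2 weeks, silk 4 weeks.

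The chemokine and cytokine group was lower in silk at 2 weeks, with a median of -0.83 over 18 members, 7 of them at least 2-fold lower and none at least 2-fold higher. At 4 weeks the median was 0.14 over 17, with 6 lower and 1 higher, Cxcl12. Cxcl10 stood at 312, 144, 44.6 and 37.9 CPM in the blood vessel cells and 136, 50.3, 20.5 and 33.3 CPM in other cells, and had a UMI in 22.8%, 12.96%, 7.23% and 4.29% of blood vessel cells and 13.4%, 2.75%, 1.25% and 2.17% of monocytes and macrophages. It was 6.99-fold (95% interval 5.89 to 8.36) lower in silk at 2 weeks and 3.79-fold (95% interval 2.58 to 5.79) at 4 weeks. Cxcl9, another Cxcr3 ligand induced by interferon-gamma, stood at 428, 51.7, 9.05 and 31.1 CPM, with 23.98%, 15.7%, 3.73% and 5% of cells having a UMI, against 3.42%, 0.269%, 0.146% and 0.271% of monocytes and macrophages. Cxcl9 was by far highest in sponge at 2 weeks. The monocyte chemokine Ccl2 stood at 184, 71.2, 27.8 and 2.71 CPM and the neutrophil chemokine Cxcl2 at 506, 176, 207 and 41.9 CPM. In all other cells Ccl2 was at 1022, 676, 305 and 273 CPM and Cxcl2 at 2922, 1243, 1907 and 1723 CPM, and the macrophage and neutrophil marker sums given above were lowest in silk at 4 weeks too. Their part in the Ccl2 and Cxcl2 values was not tested.

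A list of 20 immediate early and heat shock genes, which cell isolation is known to induce, was lower in silk at 2 weeks too, with a median of -0.37, 3 of 20 members above 0 and 2 at least 2-fold lower, Atf3 and Hspb1. At 4 weeks the median was 0.03. Between times it was 0.13 in sponge and 0.49 in silk, where 17 of 20 were above 0 and 3, Fosb, Egr1 and Btg2, at least 2-fold higher at 4 weeks. The list summed to 14409, 16292, 11211 and 16334 CPM in blood vessel cells and 12727, 15753, 11051 and 15258 CPM in all other cells, lowest in silk at 2 weeks in both. Its part in the chemokine values and in the time differences was not tested.

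To show the sequence in front of these interferon-induced genes, the stretch from 250 bases before to 50 bases after the start was searched for the core of the interferon-stimulated response element, GAAA then any 2 bases then GAAA, on both strands (TTTC, any 2 bases, TTTC on the printed strand for the reverse). Matches may overlap and were then each counted. Of all 32851 promoters in the RefSeq table (GRCm38.p6), 1131, or 3.44%, hold it. Of 20 genes looked for (the interferon group with Cxcl9 and Cxcl10), 16 had a promoter in the table and 9 of these held the motif. Printed are the promoters of genes compared at both times, lower in silk by at least 0.5 on the log2 scale at both, and holding a match. Each is given 5′ to 3′ along its gene, with matches in capitals.
Isg15 (chr4:156200769-156201068, minus strand): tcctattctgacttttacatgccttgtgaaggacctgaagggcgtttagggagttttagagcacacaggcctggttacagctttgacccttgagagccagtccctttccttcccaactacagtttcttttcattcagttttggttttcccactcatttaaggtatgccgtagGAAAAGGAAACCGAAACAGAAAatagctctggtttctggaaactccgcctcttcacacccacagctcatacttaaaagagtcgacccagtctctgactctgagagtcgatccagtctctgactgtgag
Cxcl10 (chr5:92348840-92349139, minus strand): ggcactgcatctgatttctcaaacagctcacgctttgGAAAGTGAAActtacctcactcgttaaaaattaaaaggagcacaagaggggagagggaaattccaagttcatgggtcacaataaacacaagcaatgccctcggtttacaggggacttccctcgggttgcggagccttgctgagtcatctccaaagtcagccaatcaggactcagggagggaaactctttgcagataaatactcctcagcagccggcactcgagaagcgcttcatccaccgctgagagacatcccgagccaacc
Rsad2 (chr12:26456403-26456702, minus strand): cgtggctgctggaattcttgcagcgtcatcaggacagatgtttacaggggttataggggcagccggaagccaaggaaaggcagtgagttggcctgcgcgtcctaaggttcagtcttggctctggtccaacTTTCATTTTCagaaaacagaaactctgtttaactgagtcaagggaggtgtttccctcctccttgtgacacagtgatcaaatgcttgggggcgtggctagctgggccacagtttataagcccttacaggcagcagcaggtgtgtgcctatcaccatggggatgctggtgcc
Bst2 (chr8:71537423-71537722, minus strand): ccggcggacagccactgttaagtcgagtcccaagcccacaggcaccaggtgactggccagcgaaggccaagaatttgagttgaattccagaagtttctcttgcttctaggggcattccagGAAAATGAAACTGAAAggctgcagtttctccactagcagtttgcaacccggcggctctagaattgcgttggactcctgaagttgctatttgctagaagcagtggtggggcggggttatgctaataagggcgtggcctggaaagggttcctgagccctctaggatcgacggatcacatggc
The Isg15 promoter holds 3 matches, those of Bst2 and Cxcl10 hold 2 and 1, and that of Rsad2 holds 1 on the reverse strand. The letters of the motif are not in the windows of Irf7 and Cxcl9, and a match is a description of sequence, not a bound site.

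**Figure D4:**
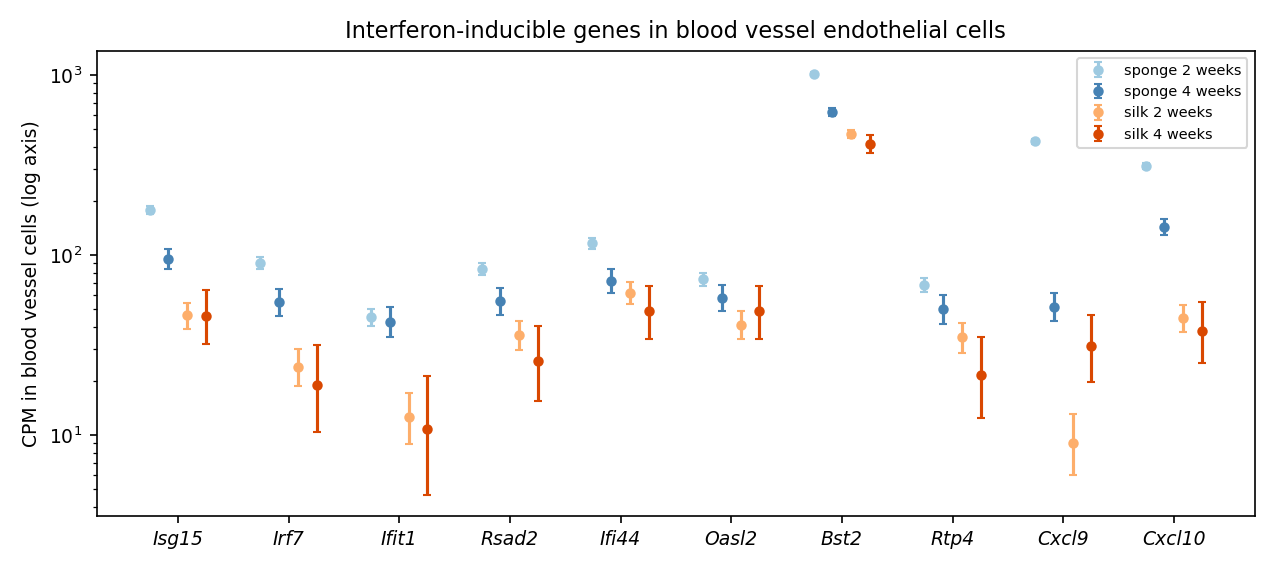
Level of 10 interferon-induced genes in blood vessel cells on a log axis of CPM, 1 point per granuloma with exact Poisson intervals. For Cxcl10, Isg15 and Irf7 both silk points lie below both sponge points.

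Leukocyte adhesion genes were slightly higher in silk, with medians of 0.25 at 2 weeks and 0.44 at 4 weeks, beside 0.10 and 0.02 for all genes. Of the measured members 1 of 14 and 2 of 13 were at least 2-fold higher and none lower. Podxl, a sialomucin of the luminal surface, stood at 180.01, 258, 325 and 622 CPM. Sele, the inflammation-induced E-selectin, stood at 147, 89.1, 148 and 124 CPM, and Vcam1 and Icam1, ligands of leukocyte integrins, at 187, 199, 174 and 285 CPM and 359.6, 425, 337 and 479 CPM. Except for Glycam1 and Podxl, the members differed by less than 2-fold between silk and sponge at both times.

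The arterial list was higher in silk at 4 weeks, where 8 of 14 members were at least 2-fold higher and none lower (median 1.14), whereas at 2 weeks none passed 2-fold either way (median 0.17). Gja5 stood at 66.5, 46.8, 123 and 154 CPM and Gja4, another arterial connexin, at 43.3, 29.3, 41.7 and 118 CPM. Stmn2, a microtubule-binding protein, stood at 59.96, 26.05, 69.8 and 135 CPM, and Edn1, the vasoconstrictor endothelin-1, at 170.02, 105, 184 and 241 CPM. For Gja4 and Stmn2 silk at 4 weeks stood apart from the other 3 granulomas. The venous list had medians of 0.61 and 0.48, with 10 of 12 and 10 of 12 members above 0. Nr2f2, the transcription factor that sets venous identity, stood at 115, 132, 221 and 154 CPM, and Ephb4, the venous receptor for ephrin-B2, at 74.2, 92.8, 127 and 158 CPM.

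Capillary genes were lower in silk at 2 weeks (median -0.45, 3 of 12 at least 2-fold lower) and not at 4 weeks (median 0.15). Gpihbp1, which carries lipoprotein lipase across capillary endothelium, stood at 479, 361, 212 and 253 CPM, Rgcc, a cell cycle regulator of capillaries, at 369, 383, 162 and 276 CPM, and Fabp5, a fatty acid binding protein, at 803, 439.98, 368 and 503 CPM. These were the 3 members at least 2-fold lower in silk at 2 weeks. In all other cells Fabp5 was at 1151, 382, 716 and 537 CPM and Rgcc at 227, 295, 354 and 309 CPM. Fabp4 was at similar levels in silk at 4 weeks and in both sponge granulomas, and lower in silk at 2 weeks.

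Tip and angiogenic genes were lower in silk at 4 weeks (median -0.86, 6 of 14 at least 2-fold lower and none higher). At 2 weeks the median was 0.05, with 3 lower, Pgf, Adm and Trp53i11. Apln, the ligand apelin, stood at 311, 226, 238 and 85.2 CPM, and its receptor gene Aplnr at 323, 414, 462 and 505 CPM. Angpt2, which opposes Tie2 signalling, stood at 240.2, 269.8, 269.95 and 96.1 CPM, and Cxcr4, the receptor for Cxcl12, at 114, 145, 131 and 46.00 CPM. Dll4, the Notch ligand of tip and arterial cells, stood at 85.01, 173, 84.7 and 103 CPM and Esm1, a secreted proteoglycan of tip cells, at 93.5, 116, 80.8 and 83.9 CPM. Apln, Angpt2 and Cxcr4 were at similar levels in 3 granulomas and lowest in silk at 4 weeks, whereas Pgf was low in both silk granulomas. In all other cells Cxcr4 was at 160.4, 182, 344 and 279 CPM, and the macrophage marker sum was lowest in silk at 4 weeks as well; the part of such cells in the Cxcr4 values was not tested.

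Receptors of the VEGF and Tie systems differed little. Kdr, the main VEGF receptor, stood at 462, 622, 517 and 667 CPM, Flt1 at 632, 819, 649 and 1022 CPM, Tek, the angiopoietin receptor Tie2, at 120.2, 127, 154 and 209.7 CPM, and Tie1 at 238, 334, 292 and 388 CPM. The VEGF group had medians of 0.12 and 0.10, with 0 and 1 members at least 2-fold higher and 1 and 1 lower, of 15. The higher one was Ptprb and the lower one at both times Pgf. In the Notch group 1 of 11 members was at least 2-fold higher at each time, Dll1 at 2 weeks and Jag2 at 4 weeks. Dll1 stood at 20.4, 40.7, 51.4 and 64.9 CPM and Jag2 at 43.4, 46.4, 52.1 and 115 CPM. Rbpj, the DNA-binding partner of Notch, was the 1 member lower at 4 weeks, at 65.8, 74.1, 82.4 and 27.1 CPM, with 254, 226, 326 and 250.5 CPM in all other cells.

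Basement membrane genes were close in all 4 granulomas, with medians of 0.10 and -0.05. Col4a1, the most common collagen IV chain, stood at 3397, 3194, 3377 and 3270.3 CPM, and Hspg2, the proteoglycan perlecan, at 573, 904, 758 and 808 CPM. Between materials only Nid2, a nidogen, passed 2-fold, lower in silk at 4 weeks, at 83.9, 138, 78.6 and 59.5 CPM. In the haemostasis group Thbd, the anticoagulant thrombomodulin, stood at 104, 166, 166 and 314 CPM and Entpd1, the enzyme CD39 that degrades extracellular ATP, at 223, 151, 329.8 and 361 CPM. Together with Vwf, Entpd1 was the member at least 2-fold higher in silk at 4 weeks, and Plaur and F2rl3 were the 2 lower. Plaur, the urokinase receptor, stood at 83.3, 99.3, 93.4 and 44.7 CPM in blood vessel cells and 189, 163, 331 and 239 CPM in all other cells, and had a UMI in 35.3%, 26.9%, 31.7% and 17.9% and, of monocytes and macrophages, 56.6%, 46.8%, 64.4% and 53.2%. The macrophage marker sum was lowest in the same library, and its part in the Plaur values was not tested. F2rl3 rested on 53, 46, 31 and 3 UMIs.

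Transcription factors of endothelium varied little: of 18 measured members 1 was at least 2-fold higher in silk at 2 weeks, Sox18 at 149, 221, 319 and 229 CPM, and none at 4 weeks, with none lower. Erg, which maintains endothelial identity, stood at 117, 125, 123 and 177 CPM, and Klf2, a factor induced by flow, at 441, 679, 485 and 866 CPM. Junction genes had medians of 0.09 and 0.27, and Cldn5 at 4 weeks was the only one of 16 past 2-fold. In the BMP and TGF-beta group the medians were 0.28 and 0.45. Bmp4, a ligand of the BMP receptors, stood at 30.8, 65.5, 47.8 and 141 CPM, and Bmpr2, a receptor for it, at 262, 199, 429.7 and 345 CPM. Glycolysis and hypoxia genes had medians of -0.03 and 0.02, and oxidative phosphorylation genes -0.02 and 0.06, each with at most 1 member past 2-fold in a direction. Cell cycle genes had medians of -0.15 and -0.53, the latter turning to 0.18 over thinned counts, where 3 members were measured. Top2a, the topoisomerase of dividing cells, stood at 54.5, 46.8, 36.5 and 10.8 CPM, on 409, 115, 113 and 8 UMIs.

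Class II antigen presentation genes were much lower in silk at 4 weeks. Cd74, the invariant chain, stood at 323, 402, 341 and 21.6 CPM and H2-Aa, a class II chain, at 145, 195, 208 and 14.9 CPM, whereas the class I gene H2-K1 stood at 2123, 2344, 1810.1 and 2207 CPM. In all other cells Cd74 was at 1832, 1683, 1947 and 4235 CPM. The 10 macrophage marker genes were lower in the same library, 8 of 10 at least 2-fold, and their part in the class II values was not tested.

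The same cells were compared between 4 and 2 weeks within each material, which uses the same 4 libraries as the comparison of materials. Of 3439 genes compared, 6 were at least 2-fold higher at 4 weeks in both materials (0.174%) and 18 lower (0.523%). The 6 were Cytl1, Depp1, Mgp, Sbno2, Gm26532 and AC149090.1. Among the 2324 genes at least as high in blood vessel cells as in the others, 4 were higher (0.172%: Cytl1, Depp1, Gm26532 and Sbno2) and 7 lower (0.301%), the latter including Chga, Hist1h2ap, Gm10076, AY036118, mt-Nd6 and Vamp7. Without the single highest cell of each library for each gene, 3 of the 6 kept the call (Depp1, Gm26532 and AC149090.1).

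Depp1, a target of FOXO factors, stood at 31.2, 92.8, 21.01 and 98.8 CPM, and both 4-week values were above both 2-week values. It was 2.98-fold (95% interval 2.47 to 3.59) higher at 4 weeks in sponge and 4.7-fold (95% interval 3.32 to 6.67) in silk. Sbno2, a transcriptional coregulator, stood at 265, 632, 314 and 643 CPM, with 103, 145, 99.1 and 113 CPM in other cells. Cytl1, a small secreted protein, stood at 17.1, 74.5, 55.6 and 153 CPM, with 89.1%, 93.99%, 51.2% and 94.7% of its UMIs in 5 cells. Without its highest cell in each library it stood at 10.7, 43.1, 48.2 and 70.4 CPM, and the time differences were 1.36 in sponge and 0.47 in silk on the log2 scale. Bmp4 differed by 0.89 in sponge and 1.38 in silk on the log2 scale. Ier2, an immediate early gene, stood at 191, 384, 197 and 384 CPM and in the other cells at 167, 311, 145 and 247 CPM, so 4 weeks was higher than 2 weeks outside the blood vessel cells as well.

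Among genes lower at 4 weeks, Chga was 6.6-fold (95% interval 5.82 to 7.52) lower in sponge and 3.76-fold (95% interval 2.23 to 6.82) in silk. In silk at 4 weeks its UMIs came from 2 cells, 1 of which held 13 of 15. Without the highest cell of each library Chga stood at 631, 89.5, 64.3 and 2.71 CPM, with log2 differences between times of -2.69 in sponge and -2.55 in silk and between materials of -3.11 at 2 weeks and -2.97 at 4 weeks. Hist1h2ap, a replication histone gene, stood at 1225, 100, 290 and 0 UMIs, or 163, 40.7, 93.8 and 0 CPM. In silk it was at least 23.1-fold lower at 4 weeks, taken against a limit of 3 UMIs in that library. Its UMIs came from 67, 16, 35 and 0 cells. The 5 cells with most held 34.2% in sponge at 2 weeks, 78% in sponge at 4 weeks and 82.1% in silk at 2 weeks. In silk at 2 weeks 1 cell held 97 of the 290 UMIs, so the limit, which counts UMIs and not cells, rests on few cells. Lower in both materials were also Il1b, Il1rn, Spp1, Clec4d and Cd52, genes of myeloid cells, and Col1a1 and Col3a1, whose other-cell sums are given above.

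Against the share of all genes at least 2-fold higher (0.292% in sponge, 0.527% in silk) or lower (0.867% and 2.74%) at 4 weeks, the vessel lists were as follows. Of the arterial list 2 of 14 members were at least 2-fold higher in silk at 4 weeks, Gja4 and Cxcl12, and none in sponge, with medians of -0.26 in sponge and 0.40 in silk. The capillary list had medians of 0.11 and 0.53, and the venous list 0.27 and 0.26. The tip list had medians of 0.26 in sponge and -0.35 in silk, where Apln, Angpt2 and Cxcr4 were at least 2-fold lower. Interferon genes had medians of -0.38 and -0.01. Whether the materials differed in these time differences could not be tested with 1 library per group.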

How the data were processed

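The authors deposited a table of raw UMI counts per gene and cell, and a table of cells with library, clustering and mitochondrial percent. Reads were processed with Cell Ranger 3.0.0 and Seurat 3.0 on mm10, per the submitters' processing notes, which give no role for each. How the deposited cells were filtered is not stated in the labels. The mitochondrial percent per cell is the deposited one. The library sizes are in the report. Blood vessel cells were selected from the deposited clustering by the rule stated in the report, and the members and gene lists were chosen with earlier results of these data known. The cell classes came from the same counts, so comparisons with other classes are descriptions. No doublet caller was run.

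For each library and cell class the counts of all cells were added up and scaled to CPM (Python 3.11.15, numpy 2.4.6, pandas 2.3.3, SciPy 1.17.1, matplotlib 3.10.9). Ratios used log2 with 10 CPM added. Ratio intervals are 95% conditional binomial intervals of the UMIs, shares have exact Clopper-Pearson intervals and levels exact Poisson intervals; all cover counting error only, and 3 UMIs stand for the limit of a 0. Thinning drew 1000 UMIs per cell without replacement from a fixed seed. Gene positions are from GENCODE on GRCm38 and promoters from RefSeq. The calculation was tested on simulated counts.

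Named genes were, for each comparison, the 12 highest and 12 lowest by the smaller of both differences among genes at least as high in blood vessel cells as in other cells, leaving out predicted gene models and genes of ribosomal proteins, mitochondria, haemoglobins, antigen receptors, Xist, Tsix and the Y chromosome; the 5 with the largest opposite differences; up to 4 members per direction of every function list; the marker lists; and the 20 genes highest over all other cells and 10 each over lymphatic and mural cells. Not all of these are described, 3 of them are not reported here, and genes taken from the range comparison were chosen after their values were seen. Alternatives covered the offset, the limits on low genes, TMM scaling (edgeR 4.0.16 in R 4.3.3) and median-ratio scaling, thinning, stricter and looser membership, cells rich in other markers, and a mean over cells.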

Additional observations from a re-analysis of the deposited data

Results flagged for a closer look

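The named genes with the largest opposite differences are given here: silk differed from sponge one way at 2 weeks and the other way at 4 weeks, or time differed one way in sponge and the other way in silk. With 1 library per group these contrasts of differences were not tested. Between materials, Ubd, a ubiquitin-like protein induced by inflammatory cytokines, stood at 224, 83.8, 112 and 216 CPM, so its log2 difference of silk from sponge was -0.94 at 2 weeks and 1.27 at 4 weeks, and the 4-week difference exceeded the 2-week one by 2.21. For Cxcl12 the differences were -0.82 at 2 weeks and 1.70 at 4 weeks, apart by 2.52. For Plaat3, a phospholipase, at 64.6, 43.6, 29.4 and 92.01 CPM, they were -0.92 at 2 weeks and 0.93 at 4 weeks, apart by 1.85. Ly6a, the surface protein Sca-1, stood at 981, 745, 473 and 1250.2 CPM and Ly6c1, a related surface protein of endothelium, at 747, 783, 493 and 1314 CPM. Their 2-week and 4-week differences lay 1.78 apart for Ly6a and 1.33 apart for Ly6c1. In all 5 genes silk was lower at 2 weeks and higher at 4 weeks, except that Ubd turned to -0.31 at 4 weeks when cells with any of 7 lymphatic genes were left out.

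Between times, Ubd differed by -1.32 in sponge and 0.89 in silk, 2.21 apart. Stmn2 differed by -0.96 in sponge and 0.86 in silk, 1.82 apart, and Gbp2, an interferon-induced guanylate-binding protein at 315, 124, 55.9 and 96.1 CPM, by -1.28 in sponge and 0.69 in silk, 1.96 apart. These 3 were lower at 4 weeks in sponge and higher in silk. Nt5e, the enzyme CD73 that makes adenosine, stood at 51.2, 109.9, 79.2 and 39.2 CPM and differed by 0.97 in sponge and -0.86 in silk, the silk value minus the sponge value being -1.83. The 5 cells with most Ubd held 49.5%, 37.9%, 39.5% and 89.4% of its UMIs, so the silk 4-week level rested on few cells. Without its highest cell in each library Ubd stood at 198, 76.9, 98.9 and 96.1 CPM, and the differences were -0.93 at 2 weeks and 0.29 at 4 weeks between materials and -1.26 in sponge and -0.04 in silk between times.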

How the results depend on the processing

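No paired analysis was possible because each group has 1 library and no replicate numbers are shared. With 1 library per group there was also no replicate to leave out. The alternatives below were listed with the design, except the one that leaves out single cells. The directions and calls of the shares, of the list counts and of the named genes were recomputed under each: of the values for named genes 662 moved by more than their counting interval, 2 reversed and 1536 did neither; of the summary values 50 moved and 114 did not.

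Of the counts of genes called in both contrasts, silk over sponge gave 7 higher and 12 lower and 4 over 2 weeks 6 and 18. Keeping only genes at least as high in these cells as in others left 3 lower and 7 lower. An offset of 50 CPM gave 4 higher for the materials and 0 higher and 8 lower for time; an offset of 2 gave 13 and 10 higher. TMM and median-ratio scaling each gave 4 higher for the materials; they shifted the median of all genes at 2 weeks by -0.17 and -0.18, and in sponge over time by -0.13 and -0.13. Thinned counts gave 2 and 1 higher, no limit on low genes 27 and 40 lower, and limits of 100 CPM and 50 UMIs 6 lower for the materials and 3 higher and 9 lower for time. All endothelial cells gave 24 higher for time, and a mean over cells 12 and 3 higher. Without the highest cell of each gene in each library, an alternative chosen after seeing the data, 4 were higher for the materials and 3 for time, and 7 list members were higher in silk over time.

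Of list members past 2-fold, silk over sponge had 6 higher and 28 lower at 2 weeks and 10 and 37 at 4 weeks, and 4 over 2 weeks 2 and 18 in sponge and 11 and 35 in silk. In that order an offset of 50 gave 2, 13, 6, 14, 1, 9, 4 and 12; an offset of 2 gave 9 higher in sponge and 19 in silk over time. TMM and median ratio gave 2 higher at 2 weeks. Thinning gave 22 lower at 4 weeks, 7 higher in sponge and 17 lower in silk, and leaving out cells with any of 7 lymphatic genes gave 21, 4 and 20. Without the tenth of cells richest in other markers, 17 were lower in silk over time. All endothelial cells gave 4 higher at 4 weeks and 20 higher in sponge, and a mean over cells 5 and 6 higher in sponge and silk. With 7 lymphatic genes in the rule the cells made up 4.74%, 3.25%, 3.17% and 6.30%. The capillary difference at 2 weeks was -2.91 points without thinning and -5.91 with at least 2 genes, and the venous differences without thinning were 8.86 and 9.88. Of list medians of at least 0.5 in size and genes of at least 1, on the log2 scale, those that turned sign were the 4-week medians of interleukin-4 and 13 response genes (0.32, thinned) and cell cycle genes (0.18 thinned, 0.038 with 7 lymphatic genes), the median of mesenchymal transition genes in silk over time (0.15 without the cells richest in other markers), Cxcl9 in silk over time (-0.12, thinned) and Ubd at 4 weeks (-0.31 with 7 lymphatic genes). Of the smaller medians that turned sign under TMM scaling, the report names only some, all for silk against sponge. Positive medians smaller than the TMM shifts, -0.076 at 4 weeks and -0.13 in sponge over time, may turn as well. Among these were the immediate early and heat shock list at 4 weeks (0.03) and the capillary list in sponge over time (0.11). The cause was not tested. Depth limits silk at 4 weeks most, where 140 cells were found.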
